A study of Mus musculus with 12 samples.

Results

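Translation initiation factors outside eIF4F were followed in mouse embryonic stem cells that carry or lack Nat1. The members were all mouse genes whose symbol begins with Eif and the number 1, 2, 3, 5 or 6, together with Eif4b and Eif4h, leaving out the Eif2ak kinases and pseudogenes. This gave 38 genes, of which 37 had a probe and 36 were among the 24457 genes tested. The others were Eif5b, whose single probe did not pass the filter on dim probes, and Eif2c5, an argonaute-named non-coding gene. Eif2c5 has no probe and enters only the counts of motifs upstream of genes.

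Total RNA was measured on 12 single-colour arrays in 4 groups of 3. Cells were either wild type or Nat1-null, and each genotype was grown either in LIF alone or in 2i+LIF, so that LIF was common to every group. LIF is a cytokine that sustains self-renewal of mouse embryonic stem cells, and 2i combines inhibitors of the kinases MEK and GSK3. The cells are labelled as an embryonic stem cell line grown on gelatin, and how many null clones were used, how long 2i was given and how the null allele was made are not given in the sources used here. Nat1 is taken as the older name of Eif4g2 (DAP5), an eIF4G relative that binds eIF3 and eIF4A but lacks the part that holds the cap-binding protein eIF4E.

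Initiation starts when eIF2, loaded with GTP and the initiator tRNA, joins eIF1, eIF1A, eIF3 and eIF5 on the small ribosomal subunit, which then scans the messenger RNA for a start codon. eIF5 triggers GTP hydrolysis on eIF2, eIF5B joins the subunits, and eIF2B recharges eIF2 with GTP, the step that eIF2 alpha kinases block under stress. eIF4B and eIF4H assist the helicase eIF4A, eIF6 keeps large subunits from joining too early, and eIF5A, despite its name, acts mainly in elongation and termination.

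The targeted gene checked the labels. Eif4g2 read 4.54, 4.49 and 4.44 in wild-type LIF, 4.23, 4.09 and 4.29 in wild-type 2i+LIF, 1.32, 1.26 and 1.25 in Nat1-null LIF, and 1.24, 1.28 and 1.42 in Nat1-null 2i+LIF. All values here are log2 processed signal relative to the 75th percentile of the array, and a difference of 1 is a 2-fold change. With Nat1 lost, Eif4g2 RNA was lower by 9.28-fold in LIF and by 7.42-fold in 2i+LIF (limma adjusted p = 7e-10 and 1.5e-08). Whether its single probe lies inside the deleted part is not given in the sources used here.

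The arrays lay on 3 slides, one with wild-type LIF, one with wild-type 2i+LIF and one with all 6 Nat1-null arrays. Slide therefore cannot be told apart from genotype, nor from medium among the wild-type arrays, and only 2i in Nat1-null cells was compared within a slide. Between 49.8% and 66.3% of spots were well above background, replicate arrays correlated at 0.988 or more, and no spot was saturated. Null replicates differed more among themselves, with an SD of the replicate difference across genes of 0.483 to 0.581 against 0.254 to 0.313 in wild type. The labels do not say whether replicates were separate cultures, so p-values measure the spread between these arrays, which may be technical, and the number of arrays limits the precision.

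The summed signal of fibroblast, trophoblast and neural markers was highest on the wild-type LIF arrays, though not that of every marker. For 10 fibroblast or feeder markers the sum of linear signals, in units of the array's 75th percentile, was 203 to 223 there, 38.4 to 43.6 in wild-type 2i+LIF, 16.7 to 19.6 in Nat1-null LIF and 21.7 to 25.7 in Nat1-null 2i+LIF. For the 6 of 7 trophoblast markers with a probe the ranges were 175 to 200, 22.6 to 24.8, 9.72 to 10.7 and 26.4 to 28.0 in the same order. For 5 neural markers they were 27.6 to 28.5, 9.12 to 10.2, 5.66 to 7.52 and 2.74 to 3.19, and for 6 primitive endoderm markers 1.17 to 1.61, 1.37 to 1.49, 2.29 to 4.38 and 1.46 to 2.10. Single markers were called above wild-type LIF (log2 difference in brackets), namely Pdgfrb (2.04) and Tfap2c (0.45) in wild-type 2i+LIF and Sox1 (0.22) in Nat1-null LIF. The 10 pluripotency markers were well above background in every group, with sums of 210 to 215, 328 to 356, 415 to 519 and 327 to 382. Not well above background on any array of a group were Lum in all groups, Postn outside wild-type LIF, and Dcn in both null groups among the fibroblast markers. Among the others this held for Cdx2 outside wild-type LIF, Hand1 and Sox7 in wild-type 2i+LIF, Fabp7 outside wild-type LIF, and Pax6, Sox7, Pdgfra and Dab2 in Nat1-null 2i+LIF. The part of these cells in the differences from wild-type LIF described next was not tested, and in bulk RNA fewer cells of a type and less RNA per cell cannot be told apart.

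Stretches upstream of 6 members are shown to set related genes with different calls side by side: eIF2B subunits that were called in opposite directions with 2i in wild-type cells, and the X- and Y-linked copies of eIF2 gamma, together with the one eIF3 subunit that was higher in all 4 comparisons of groups. Each is taken from RefSeq (GRCm38.p6), runs 5′ to 3′ on the gene's strand, and ends just before the gene; capitals mark motif matches on either strand.
Eif2b2: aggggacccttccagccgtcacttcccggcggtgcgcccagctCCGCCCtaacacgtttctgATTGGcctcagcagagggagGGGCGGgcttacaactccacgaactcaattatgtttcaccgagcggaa
Eif2b4: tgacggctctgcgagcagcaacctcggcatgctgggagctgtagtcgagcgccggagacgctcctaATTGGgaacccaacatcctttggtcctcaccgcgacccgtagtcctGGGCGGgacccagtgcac
Eif2b5: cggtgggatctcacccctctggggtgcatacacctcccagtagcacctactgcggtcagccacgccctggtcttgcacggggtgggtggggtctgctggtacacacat
Eif2s3x: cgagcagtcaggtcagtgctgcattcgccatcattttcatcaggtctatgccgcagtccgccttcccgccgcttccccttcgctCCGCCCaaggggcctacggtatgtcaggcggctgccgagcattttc
Eif2s3y: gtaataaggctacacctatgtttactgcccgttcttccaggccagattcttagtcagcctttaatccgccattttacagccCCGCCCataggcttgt
Eif3k: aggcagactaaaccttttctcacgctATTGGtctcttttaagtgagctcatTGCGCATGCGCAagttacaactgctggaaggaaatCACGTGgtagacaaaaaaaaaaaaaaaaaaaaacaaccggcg
They lie at chr12:85219351-85219480, plus strand (Eif2b2), chr5:31193140-31193269, minus strand (Eif2b4), chr16:20498687-20498794, plus strand (Eif2b5), chrX:94212652-94212781, minus strand (Eif2s3x), chrY:1010465-1010561, plus strand (Eif2s3y), and chr7:28981891-28982018, minus strand (Eif3k). The motifs searched were TATAAA (the TATA box), CCAAT (the CCAAT box), CACGTG (an E-box), TGCGCA (part of the NRF1 site), CCGGAAG (a core bound by ETS factors), TGACGTCA (the CRE) and GGGCGG (the GC box), each on both strands, and neighbouring matches may overlap. Eif2b2 and Eif2b4 hold CCAAT (as ATTGG) and GGGCGG, while the Eif2b5 stretch holds none of the motifs, although its full 250-base window holds CCAAT and TGCGCA. Eif2s3x and Eif2s3y each hold 1 GGGCGG match, read as CCGCCC, and Eif3k holds 2 adjoining TGCGCA matches beside CACGTG and CCAAT.

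Over the 250 bases before the first-listed start, 22 of the 31 members with a RefSeq window held GGGCGG, against 32.9% of 27025 genes with a window of that length. The 31 include Eif2c5 and Eif5b, which were not tested for expression. TGCGCA stood in 8 members (6.66% of all genes), CCGGAAG in 9 (7.05%), CACGTG in 5 (6.05%), CCAAT in 8 (34.5%), TATAAA in 4 (13.0%) and TGACGTCA in none (1.62%). The members with CCGGAAG were Eif1ad, Eif1ax, Eif1b, Eif3c, Eif3d, Eif3g, Eif3l, Eif3m and Eif5a2, and those with TGCGCA were Eif1, Eif2b5, Eif2s1, Eif2s3x, Eif3a, Eif3f, Eif3j1 and Eif3k. The median GC content of these windows was 56.4% in members and 52% in all genes. A match is a description of these letters and not a bound site.

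Most members that changed when 2i was added to wild-type cells, or when Nat1 was lost in LIF, were lower, and most that changed when 2i was added to Nat1-null cells were higher, the last with the scaling used but not without scaling. In wild-type cells, 2i+LIF against LIF gave 6 of 36 members higher and 13 lower, where 35.0% of all genes were called higher and 27.2% lower (limma, Benjamini-Hochberg adjusted p below 0.05 over all genes). Loss of Nat1 in LIF gave 3 higher and 19 lower (33.9% and 32.9% of all genes), and loss of Nat1 in 2i+LIF gave 10 higher and 5 lower (21.0% and 22.6%). In Nat1-null cells, 2i gave 15 higher and 1 lower (21.4% and 15.8%). The median member difference was -0.11, -0.25, 0.048 and 0.18 in these comparisons, against 0.063, 0.017, -0.0051 and 0.052 over all genes.

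The groups of 3 arrays did not overlap for 18 members that were lower and 6 that were higher with 2i in wild-type cells (34.8% and 41.8% of all genes). The counts were 20 and 5 for loss of Nat1 in LIF (36.2% and 36.6%), 10 and 14 for loss in 2i+LIF (29.3% and 28.0%), and 1 and 19 for 2i in null cells (17.5% and 26.1%). Few members were called with a log2 difference of at least 1. For 2i in wild-type cells Eif5a was lower by that much and no member was higher, against 12.0% lower and 7.18% higher among all genes. With loss of Nat1 in LIF, Eif2s3y, Eif5a and Eif3j2 were lower and no member was higher (16.1% and 9.89% of all genes). With loss of Nat1 in 2i+LIF no member was lower or higher by that much (7.48% and 3.37%). For 2i in null cells Eif2b5 was higher and no member was lower (3.70% and 4.30%).

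The split of calls depended on how arrays were scaled. With unscaled values, the all-gene median moved to -0.50, -0.14, 0.22 and -0.14 in the 4 comparisons, and 0 members were higher and 34 lower with 2i in wild-type cells (9.15% and 62.3% of all genes), 21 higher and 1 lower with loss of Nat1 in 2i+LIF (40.5% and 12.9%), and 4 higher and 5 lower with 2i in null cells (7.81% and 27.5%). Relative to those medians the members' medians were -0.17, -0.26, 0.054 and 0.13. These equal the scaled values by construction, because scaling shifts all genes of an array alike, so they do not test the choice of scaling. Quantile normalization gave 4 higher and 22 lower (34.3% and 29.1% of all genes), 1 and 23 (35.9% and 33.1%), 11 and 13 (19.9% and 24.3%), and 12 and 5 (16.2% and 18.0%). Median centring gave 7 higher and 18 lower for loss of Nat1 in LIF (38.4% and 29.5%). Leaving out Nat1-null LIF replicate 2, the array of lowest quality weight, gave 6 and 15, 5 and 19, 13 and 8, and 17 and 2. The shares of all genes were then 36.7% and 29.1%, 35.0% and 32.7%, 23.6% and 25.1%, and 22.7% and 18.6%. The 3 higher calls for loss of Nat1 in LIF became 1 without wild-type LIF replicate 2 (31.4% of all genes). The 5 lower calls for loss in 2i+LIF became 8 without Nat1-null 2i+LIF replicate 2 (21.5%). The single lower call with 2i in null cells became 0 without Nat1-null 2i+LIF replicate 1 (13.9%; limma).

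**Figure D1:**
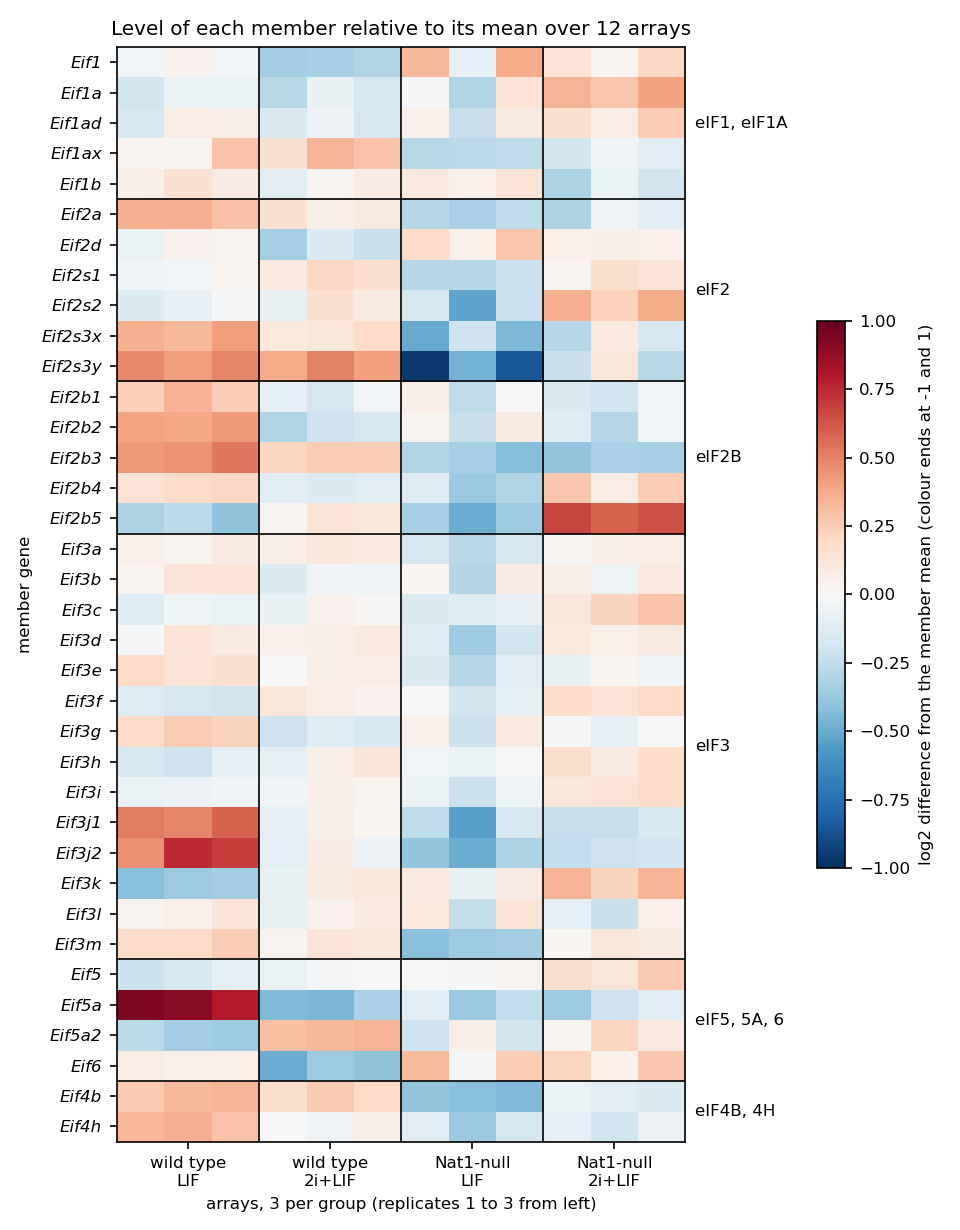
Heatmap of the 36 tested members (rows, by class) on the 12 arrays (columns, 3 per group), coloured by the log2 difference from each member's mean over the arrays. Eif5a stands out on the 3 wild-type LIF arrays, Eif2s3y is lowest on the Nat1-null LIF arrays, and Eif2b5 is highest on the Nat1-null 2i+LIF arrays.

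The eIF1 and eIF1A factors hold the ribosome open for scanning and guard start codon choice. On the probes used, they were mostly not called with loss of Nat1 in LIF, but second probes of Eif1 and Eif1ad were called higher there. Of 5 members, 3 were higher and 1 lower in null than in wild-type cells in 2i+LIF (21.0% and 22.6% of all genes), and 1 was lower in LIF (32.9%). With 2i, 1 was lower in wild-type cells (27.2%), and 1 was higher and 1 lower in null cells (21.4% and 15.8%). Eif1 read 6.60, 6.67 and 6.60 in wild-type LIF, 6.28, 6.30 and 6.33 in wild-type 2i+LIF, 6.95, 6.55 and 7.001 in Nat1-null LIF, and 6.77, 6.65 and 6.83 in Nat1-null 2i+LIF. The wild-type 2i+LIF arrays were the lowest and overlapped no other group, while the null LIF arrays spanned the wild-type LIF ones. Eif1 fell with 2i in wild-type cells by 0.32 ± 0.11 (SE; limma adjusted p = 0.024) and was 0.45 ± 0.11 higher in null than in wild-type cells in 2i+LIF (adjusted p = 0.0069). Its fall was lost under 4 of 23 alternatives, among them leaving out replicate 2 of wild-type LIF or replicate 1 or 2 of wild-type 2i+LIF (limma adjusted p = 0.058 to 0.072, against 3.6e-05 to 0.072 over all alternatives). A second probe gave -0.50 for that fall, 0.30 for loss of Nat1 in LIF and 0.45 for the interaction (limma adjusted p over all probes = 0.00034, 0.0065 and 0.0078). On the probe used, Eif1 was not called in the last pair. Its close relative Eif1b read 3.07, 3.17 and 3.10 in wild-type LIF, 2.90, 3.04 and 3.09 in wild-type 2i+LIF, 3.11, 3.07 and 3.15 in Nat1-null LIF, and 2.70, 2.95 and 2.83 in Nat1-null 2i+LIF. Its null 2i+LIF arrays lay below the null LIF arrays and overlapped the wild-type 2i+LIF ones. Eif1b fell with 2i in null cells by 0.28 (adjusted p = 0.015), the only member lower there, a call that was lost under 2 of 23 alternatives, among them leaving out replicate 1 of Nat1-null 2i+LIF (limma adjusted p = 0.051, against 0.0019 to 0.074 over all alternatives).

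Of the eIF1A genes, Eif1ax was lower with loss of Nat1 in both media, while Eif1a and Eif1ad were higher in 2i+LIF and not called in LIF on the probes used. A second Eif1ad probe showed the reverse, with 0.49 in LIF and 0.15 in 2i+LIF (limma adjusted p over all probes = 0.00066 and 0.21). On that probe the 2i difference in null minus wild-type cells was -0.34 (limma adjusted p over all probes = 0.042). Eif1a, an autosomal eIF1A gene, read 4.53, 4.65 and 4.65 in wild-type LIF, 4.44, 4.64 and 4.54 in wild-type 2i+LIF, 4.70, 4.42 and 4.86 in Nat1-null LIF, and 5.06, 4.99 and 5.12 in Nat1-null 2i+LIF. Its Nat1-null 2i+LIF arrays were above all others, 1.43-fold over wild-type 2i+LIF (difference 0.51, limma adjusted p = 0.003) and 1.32-fold over null LIF (difference 0.40, adjusted p = 0.014). The X-linked Eif1ax read 5.92, 5.92 and 6.17 in wild-type LIF, 6.04, 6.23 and 6.17 in wild-type 2i+LIF, 5.61, 5.62 and 5.63 in Nat1-null LIF, and 5.71, 5.85 and 5.77 in Nat1-null 2i+LIF. Every null array was below every wild-type array, by 0.38 in LIF and 0.37 in 2i+LIF (limma adjusted p = 0.0019 and 0.0045). For loss of Nat1 in 2i+LIF, Eif1ad, a more distant eIF1A-domain gene, differed by 0.29 ± 0.10 (SE; limma adjusted p = 0.041), a call that was lost under 11 of 23 alternatives, among them leaving out replicate 2 or 3 of wild-type LIF, replicate 1, 2 or 3 of wild-type 2i+LIF or replicate 1 or 3 of Nat1-null 2i+LIF (limma adjusted p = 0.051 to 0.12, against 0.0024 to 0.12 over all alternatives). The interaction call of Eif1a, a difference between its 2i effects of 0.47, was lost under 4 of 22 alternatives, leaving out replicate 2 or 3 of wild-type LIF, replicate 1 of wild-type 2i+LIF or replicate 3 of Nat1-null 2i+LIF (limma adjusted p = 0.054 to 0.058, against 0.0011 to 0.058 over all alternatives).

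On the probes used, most genes of the eIF2 class were lower with Nat1 lost in LIF. Second probes of Eif2s1 and Eif2s2 were called higher there, and that of Eif2s3x was not called. The class holds 6 genes, for eIF2 subunits and for eIF2A and eIF2D, which can deliver initiator tRNA without eIF2. With loss of Nat1 in LIF, 4 were lower and none higher (32.9% and 33.9% of all genes). With 2i in null cells, 3 were higher and none lower (21.4% and 15.8%), which without scaling became 1 higher and 1 lower (7.81% and 27.5%). The largest change was that of Eif2s3y, the Y-linked gene for the gamma subunit, which read 3.73, 3.67 and 3.74 in wild-type LIF, 3.62, 3.75 and 3.66 in wild-type 2i+LIF, 2.29, 2.78 and 2.40 in Nat1-null LIF, and 3.03, 3.36 and 2.97 in Nat1-null 2i+LIF. All 6 null arrays lay below all 6 wild-type arrays, and within null cells the 2i+LIF arrays lay above the LIF ones. Eif2s3y fell with loss of Nat1 by 1.22 ± 0.13 in LIF (2.34-fold, adjusted p = 2e-05) and by 0.55 in 2i+LIF (adjusted p = 0.0073), and rose with 2i in null cells by 0.63 (adjusted p = 0.0047). In wild-type cells its 2i difference was -0.039 (95% interval -0.34 to 0.26; limma adjusted p = 0.82). The rise in null cells was lost under 2 of 23 alternatives (limma adjusted p = 0.0004 to 0.057 over all of them).

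Ddx3y and Uty, other Y-linked genes chosen after their values were seen, were also lower in null cells. Ddx3y, a Y-linked RNA helicase, read 1.95, 1.95 and 1.95 in wild-type LIF, 1.59, 1.63 and 1.55 in wild-type 2i+LIF, 0.85, 0.97 and 0.73 in Nat1-null LIF, and 1.26, 1.32 and 1.22 in Nat1-null 2i+LIF, with null LIF the lowest group. It fell with loss of Nat1 by 1.10 in LIF and 0.32 in 2i+LIF (limma adjusted p = 2.3e-07 and 0.0024) and rose with 2i in null cells by 0.41 (adjusted p = 0.00079). Uty, a Y-linked histone demethylase relative, was well above background on all 6 wild-type arrays, on 1 of 3 null LIF arrays and on no null 2i+LIF array, with group means of -3.31 ± 0.018, -4.04 ± 0.42, -5.63 ± 0.66 and -5.15 ± 0.64 (SD, n = 3) in the order used above. The share of cells with a Y chromosome and its part in the Eif2s3y values was not tested.

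The X-linked copy, Eif2s3x, read 3.32, 3.28 and 3.38 in wild-type LIF, 3.07, 3.08 and 3.16 in wild-type 2i+LIF, 2.46, 2.76 and 2.51 in Nat1-null LIF, and 2.67, 3.06 and 2.80 in Nat1-null 2i+LIF. Its null LIF arrays overlapped the null 2i+LIF ones and lay 0.75 ± 0.11 below wild-type LIF (adjusted p = 0.00013), and its 2i difference in null cells was 0.27 (95% interval 0.032 to 0.51; limma adjusted p = 0.073). A second Eif2s3x probe gave 0.10 (limma adjusted p over all probes = 0.13) for loss of Nat1 in LIF, so the fall rests on 1 of 2 probes. With 2i the second probe was called higher in wild-type and in null cells, at 0.39 and 0.42 (limma adjusted p over all probes = 0.00016 and 0.00032). Eif2s2, the beta subunit, read 7.31, 7.37 and 7.43 in wild-type LIF, 7.38, 7.62 and 7.54 in wild-type 2i+LIF, 7.29, 6.92 and 7.24 in Nat1-null LIF, and 7.80, 7.68 and 7.82 in Nat1-null 2i+LIF. It rose with 2i in null cells by 0.62 ± 0.10 (adjusted p = 0.0011), with null 2i+LIF arrays above all others, and its 2i difference in wild-type cells was 0.14 (95% interval -0.084 to 0.37; limma adjusted p = 0.25). Its second probe gave 0.70 (limma adjusted p over all probes = 9.1e-05) for 2i in wild-type cells and 1.11 (limma adjusted p over all probes = 2.5e-06) for loss of Nat1 in LIF, against -0.22 for the probe used here.

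Eif2s1, the alpha subunit that stress kinases phosphorylate, was higher with 2i and lower with loss of Nat1 in LIF on the probe used. Its differences were 0.16 for 2i in wild-type cells, -0.25 for loss of Nat1 in LIF and 0.37 for 2i in null cells (limma adjusted p = 0.028, 0.0024 and 0.00067). Its second probe opposed the last pair, with 0.52 (limma adjusted p over all probes = 0.0003) and -0.27 (limma adjusted p over all probes = 0.028). For the interaction that probe was called lower, at -0.46 (limma adjusted p over all probes = 0.0084). The wild-type call was lost under 8 of 23 alternatives, among them leaving out replicate 1 or 2 of wild-type LIF or replicate 2 or 3 of wild-type 2i+LIF (limma adjusted p = 0.072 to 0.096, against 0.0011 to 0.71 over all alternatives). The call of its interaction, 0.21, was lost under 15 of 22 alternatives, among them leaving out replicate 1, 2 or 3 of wild-type LIF, replicate 1, 2 or 3 of wild-type 2i+LIF, replicate 1 or 2 of Nat1-null LIF or replicate 2 or 3 of Nat1-null 2i+LIF (limma adjusted p = 0.051 to 0.11, against 0.0016 to 0.24 over all alternatives). Eif2a was lower than wild-type LIF in both wild-type 2i+LIF (-0.24, adjusted p = 0.013) and null LIF (-0.63, adjusted p = 2.3e-05), and lower with loss of Nat1 in 2i+LIF (-0.26, adjusted p = 0.014). Eif2d fell with 2i in wild-type cells by 0.24 (adjusted p = 0.014), a call that was lost under 2 of 23 alternatives, leaving out replicate 2 of wild-type LIF or replicate 1 of wild-type 2i+LIF (limma adjusted p = 0.051 to 0.057, against 1e-05 to 0.057 over all alternatives). In 2i+LIF, Eif2d was 0.29 higher in null cells (adjusted p = 0.0082).

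The 5 subunits of eIF2B, the exchange factor that recharges eIF2, did not move together. With 2i in wild-type cells, 4 subunits were lower (27.2% of all genes) and Eif2b5, the catalytic epsilon subunit, was higher (35.0%). Without scaling the Eif2b5 difference was -0.14, which is 0.36 above the median of all genes there. With loss of Nat1 in LIF the same 4 were lower (32.9% of all genes), and Eif2b5 differed by -0.068 (95% interval -0.21 to 0.071; limma adjusted p = 0.36). Eif2b5 read 2.76, 2.82 and 2.68 in wild-type LIF, 3.11, 3.22 and 3.20 in wild-type 2i+LIF, 2.75, 2.59 and 2.72 in Nat1-null LIF, and 3.75, 3.67 and 3.72 in Nat1-null 2i+LIF. Its null 2i+LIF arrays were above all others, its wild-type 2i+LIF arrays came next, and the LIF groups overlapped. It rose with 2i by 0.42 ± 0.062 in wild-type cells and by 1.03 ± 0.062 in null cells (2.04-fold), with limma adjusted p = 0.00021 and 2.2e-06. The difference between these effects, 0.61, was also called (adjusted p = 0.00031).

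The delta subunit gene Eif2b4 fell with 2i in wild-type cells and rose with 2i in null cells. It read 4.90, 4.94 and 4.96 in wild-type LIF, 4.65, 4.62 and 4.64 in wild-type 2i+LIF, 4.62, 4.38 and 4.45 in Nat1-null LIF, and 5.02, 4.83 and 5.01 in Nat1-null 2i+LIF. The wild-type LIF and null 2i+LIF arrays overlapped at the top and the other groups lay below them. Its 2i difference was -0.30 ± 0.074 in wild-type cells and 0.47 ± 0.074 in null cells (adjusted p = 0.0058 and 0.00091), and the interaction of 0.77 was called (adjusted p = 0.00022). Eif2b4 and Eif3k were the only members called in all 4 comparisons of groups. The beta subunit gene Eif2b2 read 5.40, 5.39 and 5.43 in wild-type LIF, 4.70, 4.80 and 4.84 in wild-type 2i+LIF, 5.04, 4.78 and 5.09 in Nat1-null LIF, and 4.88, 4.72 and 4.98 in Nat1-null 2i+LIF. The wild-type LIF arrays were above the rest, by 0.63 over wild-type 2i+LIF (1.55-fold, adjusted p = 0.0002) and by 0.44 over null LIF (adjusted p = 0.0018).

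The gamma subunit gene Eif2b3 was lower in null cells in both media. It read 3.21, 3.24 and 3.32 in wild-type LIF, 3.01, 3.04 and 3.03 in wild-type 2i+LIF, 2.49, 2.46 and 2.36 in Nat1-null LIF, and 2.39, 2.47 and 2.46 in Nat1-null 2i+LIF. Every null array was below every wild-type array, by 0.82 ± 0.052 in LIF (1.77-fold, adjusted p = 4.5e-07) and by 0.59 ± 0.052 in 2i+LIF (1.50-fold, adjusted p = 1.9e-05). A second probe gave -0.77 (limma adjusted p over all probes = 1.4e-06) and -0.57 (limma adjusted p over all probes = 4.5e-05). For the interaction that probe was not called, at 0.20 (limma adjusted p over all probes = 0.068). The interaction call of Eif2b3 (0.24) was lost under 7 of 22 alternatives, among them leaving out replicate 3 of wild-type LIF, replicate 1 of wild-type 2i+LIF, replicate 3 of Nat1-null LIF or replicate 3 of Nat1-null 2i+LIF (limma adjusted p = 0.051 to 0.061, against 0.0005 to 0.065 over all alternatives). The alpha subunit gene Eif2b1 fell by 0.37 with 2i in wild-type cells and by 0.34 with loss of Nat1 in LIF (limma adjusted p = 0.0042 and 0.0062).

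**Figure D2:**
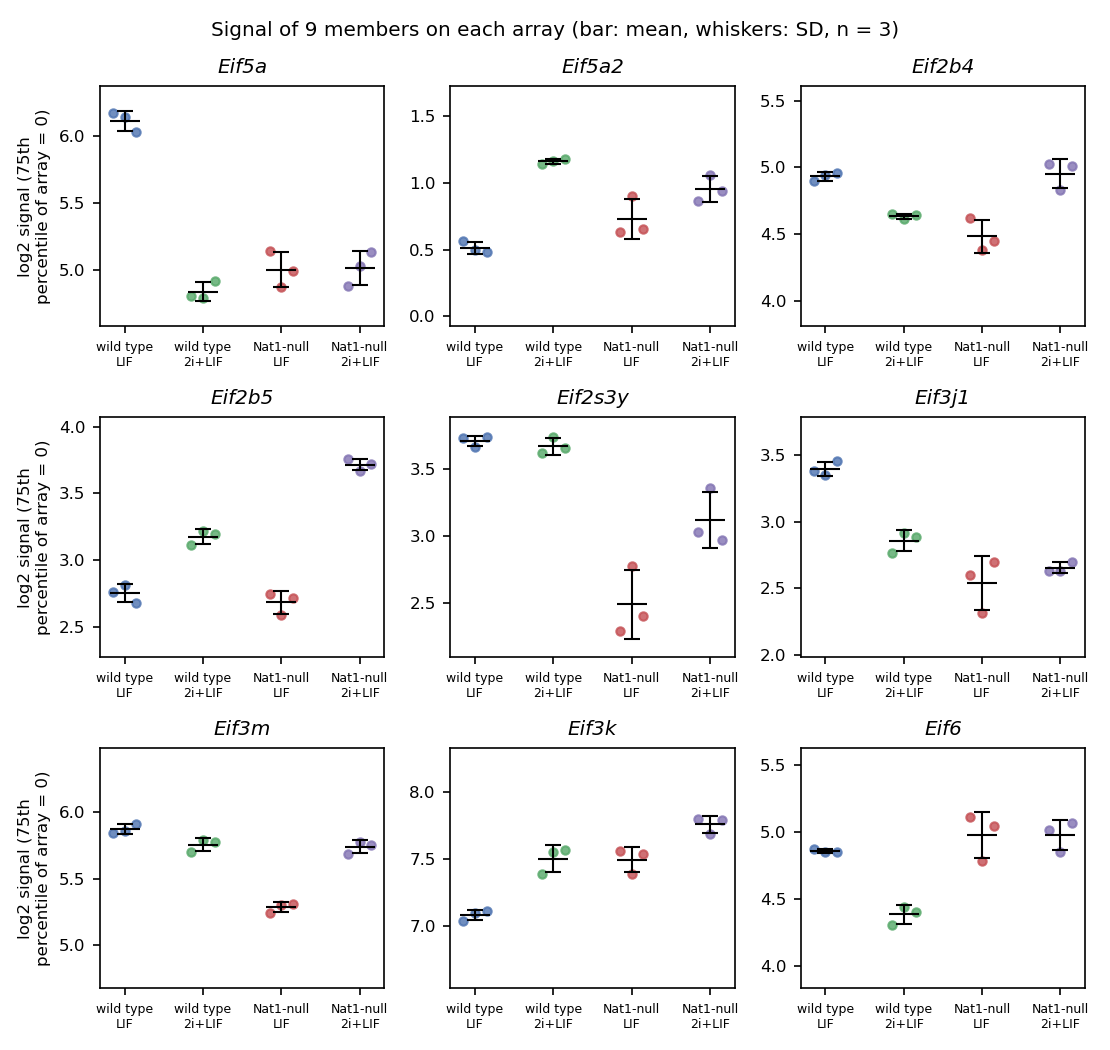
Signal of 9 members on each array, as log2 relative to the array's 75th percentile, by group (points: arrays; bar: mean; whiskers: SD, n = 3). Eif5a is 6.03 or more in wild-type LIF and 5.14 or less elsewhere, Eif2b5 is highest in Nat1-null 2i+LIF, and Eif3k is lowest in wild-type LIF.

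eIF3, the large scaffold that joins the small subunit to the messenger RNA, has 14 member genes here, and most of its calls were lower with loss of Nat1 in LIF and higher with 2i in null cells, the latter not without scaling. Counts were 3 higher and 3 lower with 2i in wild-type cells (35.0% and 27.2% of all genes) and 1 and 7 with loss of Nat1 in LIF (33.9% and 32.9%). They were 2 and 0 with loss in 2i+LIF (21.0% and 22.6%), and 7 and 0 with 2i in null cells (21.4% and 15.8%). Without scaling, these became 0 higher and 14 lower (9.15% and 62.3% of all genes), 1 higher and 9 lower (25.5% and 39.4%), 10 higher and 0 lower (40.5% and 12.9%), and 1 higher and 1 lower (7.81% and 27.5%). With quantile normalization they became 2 higher and 9 lower (34.3% and 29.1%), 1 higher and 9 lower (35.9% and 33.1%), 2 higher and 4 lower (19.9% and 24.3%), and 5 higher and 2 lower (16.2% and 18.0%). Eif3b and Eif3l, a core and an accessory subunit, were called in no comparison of groups. Over the 12 arrays Eif3b ranged from 3.51 to 3.93 and Eif3l from 7.12 to 7.49, with null LIF overlapping the wild-type LIF arrays in both.

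The largest falls among eIF3 genes were in Eif3j1 and Eif3j2, copies of the gene for the loosely bound j subunit. Eif3j1 read 3.38, 3.35 and 3.45 in wild-type LIF, 2.77, 2.92 and 2.89 in wild-type 2i+LIF, 2.60, 2.31 and 2.70 in Nat1-null LIF, and 2.63, 2.63 and 2.70 in Nat1-null 2i+LIF. Eif3j2 read 3.21, 3.50 and 3.45 in wild-type LIF, 2.66, 2.83 and 2.70 in wild-type 2i+LIF, 2.36, 2.26 and 2.44 in Nat1-null LIF, and 2.51, 2.54 and 2.56 in Nat1-null 2i+LIF. In both, wild-type LIF arrays were above every other array, wild-type 2i+LIF came next, and the null groups were lowest, overlapping each other in Eif3j1 only. The fall with 2i in wild-type cells was 0.54 for Eif3j1 and 0.65 for Eif3j2 (limma adjusted p = 0.00062 and 8.8e-05), and with loss of Nat1 in LIF 0.85 and 1.03 (adjusted p = 1.9e-05 and 2.5e-06). Whether each probe also reads the other copy was not tested, so separate changes of the copies are uncertain.

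Eif3k, a small accessory subunit gene, was higher in all 4 comparisons with the scaling used. It read 7.04, 7.09 and 7.11 in wild-type LIF, 7.38, 7.55 and 7.57 in wild-type 2i+LIF, 7.56, 7.39 and 7.54 in Nat1-null LIF, and 7.80, 7.68 and 7.79 in Nat1-null 2i+LIF. Wild-type LIF arrays were lowest, the middle groups overlapped and null 2i+LIF arrays were highest. Its differences were 0.42 for 2i in wild-type cells, 0.41 for loss of Nat1 in LIF, 0.26 for loss in 2i+LIF and 0.27 for 2i in null cells, each with SE 0.070 (limma adjusted p = 0.0005, 0.00047, 0.014 and 0.015). Its 3 probes agreed in sign in all 4, with a range of 0.28 to 0.82 in the first and 0.29 to 0.93 in the second. The call in 2i+LIF was lost under 1 of 23 alternatives, leaving out replicate 1 of wild-type 2i+LIF (limma adjusted p = 0.052, against 0.00013 to 0.052 over all alternatives). The call for 2i in null cells was lost under 3 of 23, namely no scaling, quantile normalization and only the arrays compared (limma adjusted p = 0.0098 to 0.38 over all alternatives). One of its 3 probes was not called there, at 0.19 (limma adjusted p over all probes = 0.098). That probe was called lower for the interaction, at -0.62 (limma adjusted p over all probes = 0.0016), where the probe used was not called. Eif3f, an accessory subunit gene, read 4.52, 4.48 and 4.46 in wild-type LIF, 4.78, 4.73 and 4.69 in wild-type 2i+LIF, 4.65, 4.47 and 4.56 in Nat1-null LIF, and 4.84, 4.80 and 4.84 in Nat1-null 2i+LIF. The LIF groups overlapped, and both 2i+LIF groups lay above them. Eif3f rose with 2i by 0.24 in wild-type and 0.27 in null cells (adjusted p = 0.0038 and 0.0046). Without scaling, the wild-type 2i differences of Eif3f and Eif3k were -0.32 and -0.15 (limma adjusted p = 0.0031 and 0.049), which is 0.18 and 0.36 above the median of all genes there.

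Eif3m, an accessory subunit gene shown after its values were seen, was lower in null cells in LIF and not called in 2i+LIF. It read 5.84, 5.85 and 5.91 in wild-type LIF, 5.70, 5.79 and 5.77 in wild-type 2i+LIF, 5.24, 5.30 and 5.31 in Nat1-null LIF, and 5.68, 5.78 and 5.75 in Nat1-null 2i+LIF. The null LIF arrays were alone at the bottom, 0.58 ± 0.050 below wild-type LIF (1.50-fold, adjusted p = 3.6e-06), and null cells in 2i+LIF exceeded those in LIF by 0.45 ± 0.050 (adjusted p = 0.0001). In 2i+LIF the genotypes differed by -0.017 (95% interval -0.13 to 0.10; limma adjusted p = 0.81). Eif3a, the largest core subunit, and Eif3d, which can itself bind caps, had the same calls. They were 0.26 and 0.30 lower with loss of Nat1 in LIF and 0.26 and 0.30 higher with 2i in null cells (limma adjusted p = 0.00082, 0.0029, 0.0024 and 0.006). Eif3e fell with loss of Nat1 in LIF by 0.34 (limma adjusted p = 0.0005) and Eif3g by 0.24 (adjusted p = 0.02). The Eif3g call was lost under 3 of 23 alternatives, among them leaving out replicate 2 of wild-type LIF (limma adjusted p = 0.062, against 0.0014 to 0.092 over all alternatives).

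Other eIF3 calls were of 0.39 or less. Eif3g fell with 2i in wild-type cells by 0.39 (adjusted p = 0.0018), and Eif3c and Eif3i rose with 2i in null cells by 0.32 and 0.26 (adjusted p = 0.002 and 0.0062). Eif3c was 0.22 higher in null than in wild-type cells in 2i+LIF, a call that was lost under 4 of 23 alternatives, among them leaving out replicate 1 of wild-type 2i+LIF or replicate 3 of Nat1-null 2i+LIF (limma adjusted p = 0.052 to 0.054, against 0.00099 to 0.22 over all alternatives). Eif3h was 0.18 higher with 2i in wild-type cells, a call that was lost under 8 of 23 alternatives, among them leaving out replicate 1 or 2 of wild-type LIF or replicate 2 or 3 of wild-type 2i+LIF (limma adjusted p = 0.086 to 0.14, against 0.00027 to 0.62 over all alternatives). For the interaction, the calls of Eif3c (0.25), Eif3d (0.31) and Eif3e (0.27) were lost when single arrays were left out. The Eif3c call was lost under 8 of 22 alternatives, among them leaving out replicate 2 or 3 of wild-type LIF, replicate 1 of wild-type 2i+LIF, replicate 1 of Nat1-null LIF or replicate 2 or 3 of Nat1-null 2i+LIF (limma adjusted p = 0.055 to 0.073, against 0.00087 to 0.084 over all alternatives). The Eif3d call was lost under 1 of 22 alternatives, leaving out replicate 2 of wild-type LIF (limma adjusted p = 0.055, against 0.00021 to 0.055 over all alternatives). The Eif3e call was lost under 4 of 22 alternatives, among them leaving out replicate 1 of wild-type LIF or replicate 1 of wild-type 2i+LIF (limma adjusted p = 0.054 to 0.055, against 0.00074 to 0.064 over all alternatives).

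Both cofactors of the eIF4A helicase were lower in null cells in LIF on the probes used. Eif4b read 4.58, 4.64 and 4.66 in wild-type LIF, 4.49, 4.58 and 4.51 in wild-type 2i+LIF, 3.92, 3.89 and 3.88 in Nat1-null LIF, and 4.25, 4.21 and 4.18 in Nat1-null 2i+LIF. Every null array was below every wild-type array, and null 2i+LIF was above null LIF. Eif4b fell with loss of Nat1 by 0.73 ± 0.048 in LIF (1.66-fold, adjusted p = 5.5e-07) and by 0.32 in 2i+LIF (adjusted p = 0.00052), and rose with 2i in null cells by 0.32 (adjusted p = 0.00073). Its 3 probes disagreed. The others gave -0.15 (limma adjusted p over all probes = 0.12) and 0.40 (limma adjusted p over all probes = 0.00022) for loss of Nat1 in LIF, the latter called in the opposite direction. With 2i these probes were called higher in wild-type cells, at 0.24 and 0.60 (limma adjusted p over all probes = 0.021 and 1.9e-05). In null cells they were not called, at 0.16 and 0.077 (limma adjusted p over all probes = 0.13 and 0.36). So the rise in null cells rests on 1 of 3 probes. Eif4h fell with loss of Nat1 in LIF by 0.54 (1.46-fold, adjusted p = 9.2e-05) and with 2i in wild-type cells by 0.32 (adjusted p = 0.0037).

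The largest difference among the members for 2i in wild-type cells was in Eif5a, the hypusine-bearing factor that helps ribosomes through difficult peptide bonds. It read 6.17, 6.15 and 6.03 in wild-type LIF, 4.80, 4.79 and 4.92 in wild-type 2i+LIF, 5.14, 4.87 and 4.99 in Nat1-null LIF, and 4.88, 5.03 and 5.13 in Nat1-null 2i+LIF. Wild-type LIF arrays stood alone at the top and the other groups overlapped one another. Eif5a was 2.43-fold lower in wild-type 2i+LIF, by 1.28 ± 0.088, and 2.17-fold lower in null LIF, by 1.11 ± 0.088 (SE; limma adjusted p = 1.3e-06 and 1.9e-06). Within null cells the 2i difference was 0.013 (95% interval -0.18 to 0.21; limma adjusted p = 0.92), and in 2i+LIF the genotypes differed by 0.18 (95% interval -0.017 to 0.37; limma adjusted p = 0.13). Both falls share the wild-type LIF arrays, which are also those with the highest fibroblast, trophoblast and neural marker sums, whose part in the falls was not tested. The Eif5a falls were called in all 23 alternatives.

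Its relative Eif5a2, which is more restricted in the tissues that use it, was higher in the same comparisons. Eif5a2 read 0.57, 0.50 and 0.48 in wild-type LIF, 1.14, 1.17 and 1.18 in wild-type 2i+LIF, 0.63, 0.91 and 0.66 in Nat1-null LIF, and 0.87, 1.06 and 0.94 in Nat1-null 2i+LIF, with wild-type LIF lowest and wild-type 2i+LIF highest. It rose with 2i in wild-type cells by 0.65 ± 0.079 (SE; limma adjusted p = 6.5e-05), a call lost without scaling, and differed by 0.22 ± 0.079 (SE; limma adjusted p = 0.034) with loss of Nat1 in LIF. The latter call was lost under 7 of 23 alternatives, among them leaving out replicate 2 or 3 of wild-type LIF or replicate 2 of Nat1-null LIF (limma adjusted p = 0.087 to 0.093, against 0.008 to 0.61 over all alternatives). By the test of the interaction on the probes used, Eif5a2 was the one member with a lower 2i effect in null than in wild-type cells. Its interaction was -0.42 ± 0.11 (SE; limma adjusted p = 0.011), a call that was lost without scaling. Eif5a and Eif5a2 were read by 1 probe each. Dhps (deoxyhypusine synthase), one of the enzymes that make hypusine on eIF5A, fell with loss of Nat1 by 0.61 in LIF and 0.78 in 2i+LIF (limma adjusted p = 1.4e-05 and 1e-05). The other 7 of 8 hypusine and diphthamide enzymes were not called with loss of Nat1 in 2i+LIF.

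Eif6, the factor that holds large ribosomal subunits apart from small ones, was lowest in wild-type 2i+LIF. It read 4.87, 4.85 and 4.85 in wild-type LIF, 4.31, 4.44 and 4.40 in wild-type 2i+LIF, 5.11, 4.79 and 5.04 in Nat1-null LIF, and 5.01, 4.85 and 5.07 in Nat1-null 2i+LIF. No array of another group was as low as the wild-type 2i+LIF arrays, and the other groups overlapped. Eif6 fell with 2i in wild-type cells by 0.48 ± 0.090 (SE; limma adjusted p = 0.0012) and was higher in null than in wild-type cells in 2i+LIF by 0.60 ± 0.090 (SE; limma adjusted p = 0.0005). Within null cells its 2i difference was -0.0014 (95% interval -0.20 to 0.20; limma adjusted p = 0.99). A second probe gave -0.47 (limma adjusted p over all probes = 0.0016) for 2i in wild-type cells.

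Eif5, the GTPase activator of eIF2, had its lowest values in wild-type LIF and read 4.70, 4.76 and 4.82 in wild-type LIF, 4.85, 4.90 and 4.92 in wild-type 2i+LIF, 4.91, 4.91 and 4.94 in Nat1-null LIF, and 5.07, 5.03 and 5.18 in Nat1-null 2i+LIF. Wild-type LIF arrays lay below and null 2i+LIF arrays above the rest. On the probe used, Eif5 was higher with loss of Nat1 by 0.16 in LIF and 0.21 in 2i+LIF and with 2i in null cells by 0.18 (limma adjusted p = 0.027, 0.012 and 0.029). A second probe gave -0.022, 0.33 and 0.30 (limma adjusted p over all probes = 0.78, 0.0026 and 0.0059), so the rise in LIF rests on 1 of 2 probes. For the interaction the second probe was called higher, at 0.35 (limma adjusted p over all probes = 0.01), and the probe used was not called. The call in LIF was lost under 10 of 23 alternatives, among them leaving out replicate 1 or 2 of wild-type LIF or replicate 1 or 3 of Nat1-null LIF (limma adjusted p = 0.052 to 0.097, against 0.0033 to 0.95 over all alternatives). The call for 2i in null cells was lost under 8 of 23 alternatives, among them leaving out replicate 1 of Nat1-null LIF or replicate 1 or 3 of Nat1-null 2i+LIF (limma adjusted p = 0.054 to 0.1, against 0.009 to 0.87 over all alternatives). Eif5b, which joins the ribosomal subunits, had 1 probe, read as -6.26, -6.10 and -5.89 in wild-type LIF, -6.84, -6.01 and -5.92 in wild-type 2i+LIF, -5.06, -6.48 and -1.46 in Nat1-null LIF and -6.13, -6.19 and -5.95 in Nat1-null 2i+LIF. It was well above background on 2 of 3 null LIF arrays and on none of the other 9, so no fold is given.

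The effect of 2i itself differed with genotype for most members. The interaction, the 2i difference in null cells minus that in wild-type cells, was called higher for 22 of 36 members and lower for 1, where 23.6% of all genes were higher and 26.2% lower, and the median member value was 0.31 against -0.032 over all genes. The largest were Eif5a (1.29 ± 0.12), Eif3j2 (0.84 ± 0.12), Eif2b4 (0.77 ± 0.10), Eif2s3y (0.67 ± 0.19), Eif3j1 (0.65 ± 0.13) and Eif2b5 (0.61 ± 0.087), with limma adjusted p from 2.2e-05 to 0.014. By class, the calls were 1 of 5 for eIF1 and eIF1A, 5 of 6 for eIF2 and its alternatives, 4 of 5 for eIF2B, 8 of 14 for eIF3, both of 2 for eIF4B and eIF4H, and 3 of 4 for eIF5, eIF5A and eIF6. Of the 22 higher calls, 9 were of genes lower with 2i in wild-type cells and not called with 2i in null cells, namely Eif2a, Eif2b2, Eif2b3, Eif3g, Eif3j1, Eif3j2, Eif4h, Eif5a and Eif6. Another 8, namely Eif1a, Eif2s2, Eif2s3y, Eif3a, Eif3c, Eif3d, Eif3m and Eif4b, were higher with 2i in null cells and not called in wild-type cells. For Eif2s2 and Eif4b this rests on the probe used, as their other probes were called higher with 2i in wild-type cells. It does so for Eif3m too, whose second probe was called lower with 2i in wild-type cells, at -0.25 (limma adjusted p over all probes = 0.0028). The second Eif2s2 probe (-0.34) and 1 other Eif4b probe (-0.53) were called lower for the interaction (limma adjusted p over all probes = 0.047 and 0.00074). Eif2b4 was called in opposite directions, Eif2b5 and Eif2s1 were higher with 2i in both genotypes, and Eif2s3x and Eif3e were called in neither. A second Eif2s3x probe was called higher with 2i in both genotypes, with an interaction of 0.027 (limma adjusted p over all probes = 0.8). Because the wild-type media lay on separate slides, the interaction carries the same limit as the wild-type comparison.

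**Figure D3:**
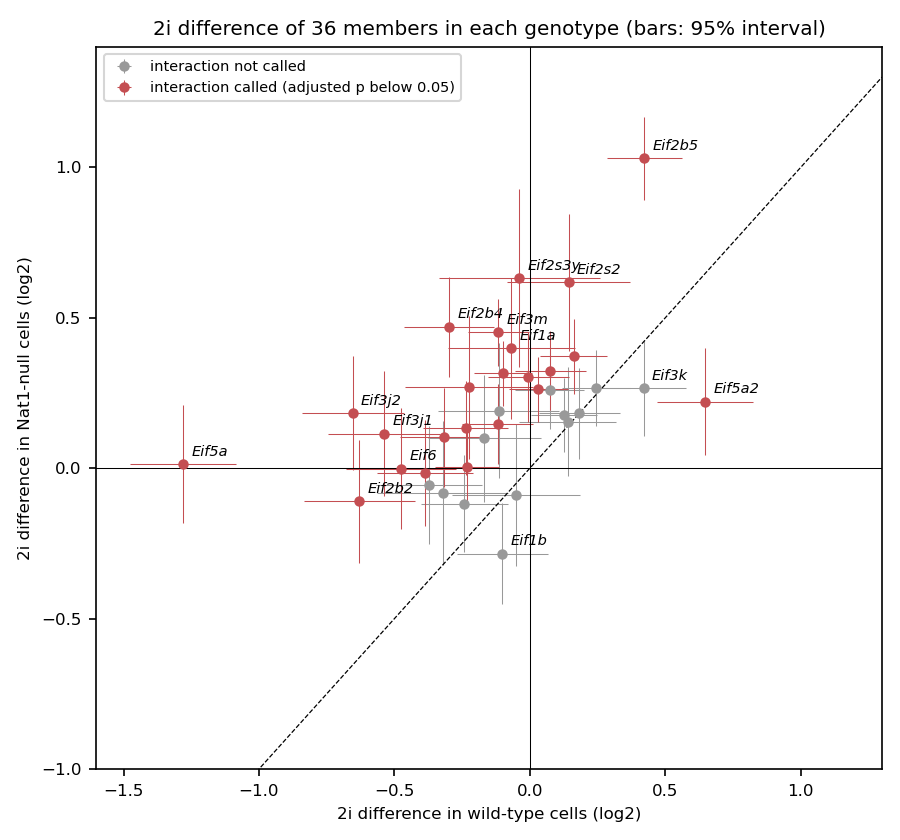
2i difference (2i+LIF minus LIF, log2) of the 36 tested members in wild-type cells (horizontal axis) and Nat1-null cells (vertical axis), with 95% intervals, red where the interaction was called and a dashed line of equal effects. Most members lie above the line, Eif5a lies farthest left at -1.28, and Eif5a2 is the one called member below the line.

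The comparison of 2i in wild-type cells and that of Nat1 loss in LIF share the wild-type LIF arrays, so a value particular to those arrays enters both, and calls that they have in common are not read as a result. Set side by side, the differences with 2i and with loss of Nat1 were -0.23 and -0.82 for Eif2b3, -0.24 and -0.63 for Eif2a, -0.37 and -0.34 for Eif2b1, and -0.32 and -0.54 for Eif4h.

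Other lists of the translation machinery are given for comparison. The shares of all genes higher and lower were 35.0% and 27.2% with 2i in wild-type cells and 33.9% and 32.9% with loss of Nat1 in LIF. They were 21.0% and 22.6% with loss in 2i+LIF, and 21.4% and 15.8% with 2i in null cells. Without scaling these shares were 9.15% and 62.3%, 25.5% and 39.4%, 40.5% and 12.9%, and 7.81% and 27.5% in that order. Of 85 cytosolic ribosomal protein genes tested, 66 were higher and 1 lower with 2i in wild-type cells, and 68 and 2 with 2i in null cells, but without scaling these became 0 higher and 78 lower and 2 higher and 3 lower, and with quantile normalization 12 higher and 14 lower and 5 higher and 2 lower. Loss of Nat1 gave 16 higher and 11 lower in LIF and 4 and 11 in 2i+LIF, which without scaling turned to 4 higher and 42 lower and 53 higher and 1 lower. In LIF, median centring gave 28 higher and 4 lower, quantile normalization 16 higher and 23 lower and normexp background correction 14 higher and 14 lower. With the scaling used, their median 2i difference was 0.27 in wild-type and 0.20 in null cells. Whether ribosomal proteins and initiation factors differed from each other was not tested.

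**Figure D4:**
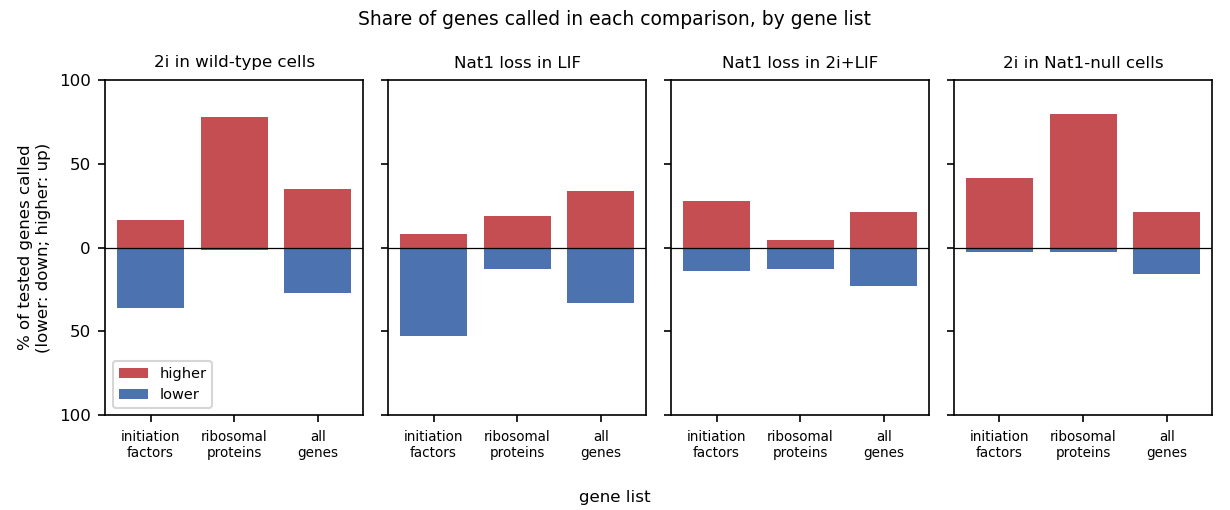
Share of tested genes called higher (red, upward) or lower (blue, downward) in each of 4 comparisons, for the 36 initiation factors, 85 ribosomal proteins and all 24457 genes. Most ribosomal proteins are called higher with 2i in both genotypes with the scaling used, which without scaling becomes 0 higher and 78 lower in wild-type and 2 higher and 3 lower in null cells and with quantile normalization 12 higher and 14 lower and 5 higher and 2 lower, and initiation factors are called lower more often than higher in the first pair.

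Most genes for the kinases that phosphorylate eIF2 alpha and for the phosphatase subunits that reverse it were higher with loss of Nat1 in LIF. Of 9 genes, 8 were higher and 0 lower with loss of Nat1 in LIF, 5 and 0 with loss in 2i+LIF, where the other 4 were not called, 1 and 4 with 2i in null cells, and 6 and 0 with 2i in wild-type cells, where it was 1 higher and 6 lower without scaling. The phosphatase adaptor genes Ppp1r15a (GADD34) and Ppp1r15b (CReP) rose with loss of Nat1 in LIF by 1.43 (limma adjusted p = 1.3e-07) and 1.39 (limma adjusted p = 3.8e-07). The double-stranded RNA kinase gene Eif2ak2 (PKR) rose by 1.13 (limma adjusted p = 0.00025) in LIF and 0.82 (limma adjusted p = 0.004) in 2i+LIF. Ppp1r15b fell with 2i in null cells, at -0.73 (limma adjusted p = 0.00015).

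Genes for termination, recycling and reinitiation were mostly lower with 2i in wild-type cells and with loss of Nat1 in LIF. Of 9 genes, 5 were lower and none higher with 2i in wild-type cells, 7 and none with loss of Nat1 in LIF, 3 higher and 2 lower with loss in 2i+LIF, and 3 higher and none lower with 2i in null cells. Median centring gave 2 higher and 5 lower for loss of Nat1 in LIF. Pelo (Pelota) and Abce1, which rescue and recycle ribosomes, fell with loss of Nat1 in LIF, at -0.86 (limma adjusted p = 1.2e-06) and -0.84 (limma adjusted p = 9.9e-07), and rose with 2i in null cells, at 0.75 (limma adjusted p = 1.8e-05) and 0.40 (limma adjusted p = 0.00075). Denr, a reinitiation factor, fell with 2i in wild-type cells (-0.45, limma adjusted p = 0.00048) and with loss of Nat1 in LIF (-0.48, limma adjusted p = 0.00026).

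Among 18 genes of eIF4F and its regulators, the targeted Eif4g2 included, calls went both ways: 7 higher and 6 lower with 2i in wild-type cells, 6 and 8 with loss of Nat1 in LIF, 4 and 6 with loss in 2i+LIF, and 6 and 2 with 2i in null cells. Eif4a2, a helicase of eIF4F, rose with 2i in wild-type cells, at 1.39 (limma adjusted p = 4.1e-08), and Eif4g3, a scaffold, was lower in null cells in 2i+LIF, at -1.37 (limma adjusted p = 3.8e-06). In the same order of comparisons, 8 elongation factor genes gave 4 and 0, 3 and 3, 1 and 1, and 5 and 1. The 8 hypusine and diphthamide enzymes gave 1 and 3, 2 and 4, 0 and 1, and 3 and 1. The 13 genes between mTORC1 and the ribosome gave 6 and 4, 6 and 3, 6 and 1, and 4 and 2, with Tsc2 and Tsc1, inhibitors of mTORC1, higher with loss of Nat1 in LIF (1.36, limma adjusted p = 5.5e-05, and 0.94, limma adjusted p = 2.4e-07). Without scaling, the eIF4F genes gave 1 higher and 13 lower, 5 and 9, 9 and 4, and 1 and 4 in that order. The elongation factors then gave 1 and 5, 2 and 3, 3 and 0, and 0 and 1. The hypusine and diphthamide enzymes then gave 1 and 6, 1 and 5, 4 and 1, and 0 and 3. The genes between mTORC1 and the ribosome then gave 1 and 10, 5 and 4, 10 and 0, and 2 and 6. Each of these lists turned in direction with 2i in null cells, and all but the hypusine and diphthamide enzymes with 2i in wild-type cells. For 2i in wild-type cells median centring turned the hypusine and diphthamide enzymes to 3 higher and 1 lower, and quantile normalization and normexp background correction each turned the eIF4F genes to 5 higher and 7 lower. For 2i in null cells quantile normalization gave 1 higher and 2 lower for the hypusine and diphthamide enzymes and 3 higher and 4 lower for the genes between mTORC1 and the ribosome.

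Both mitochondrial initiation factors, Mtif2 and Mtif3, were lower with loss of Nat1 in LIF, 1 of them with median centring (-0.14, limma adjusted p = 0.044, and -0.35, limma adjusted p = 0.0047).

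Agreement between probes limits some members. Of 14 members with several probes, all probes had the same sign in 9 for 2i in wild-type cells, 8 for loss of Nat1 in LIF, 11 for loss in 2i+LIF and 11 for 2i in null cells. Probes of one gene were called in opposite directions for 2 members, Eif2s1 and Eif4b, with loss of Nat1 in LIF, and for Eif2s1 with 2i in null cells. For the interaction this held for Eif2s2 and Eif4b. Eif2s1 came close, with a second probe called lower at -0.46 and 0.21 on the probe used (limma adjusted p over all probes = 0.0084 and 0.056). When the mean of a gene's probes stood for it, the difference of Eif2s1 with loss of Nat1 in LIF became 0.13. Among others, the probes of Eif1, Eif2b3, Eif2d, Eif3k, Eif3m and Eif6 kept one sign both with 2i in wild-type cells and with loss of Nat1 in LIF. Another 22 tested members, among them Eif5a, Eif2b4, Eif2b5, Eif2s3y and Eif3j1, were read by a single probe.

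**Figure D5:**
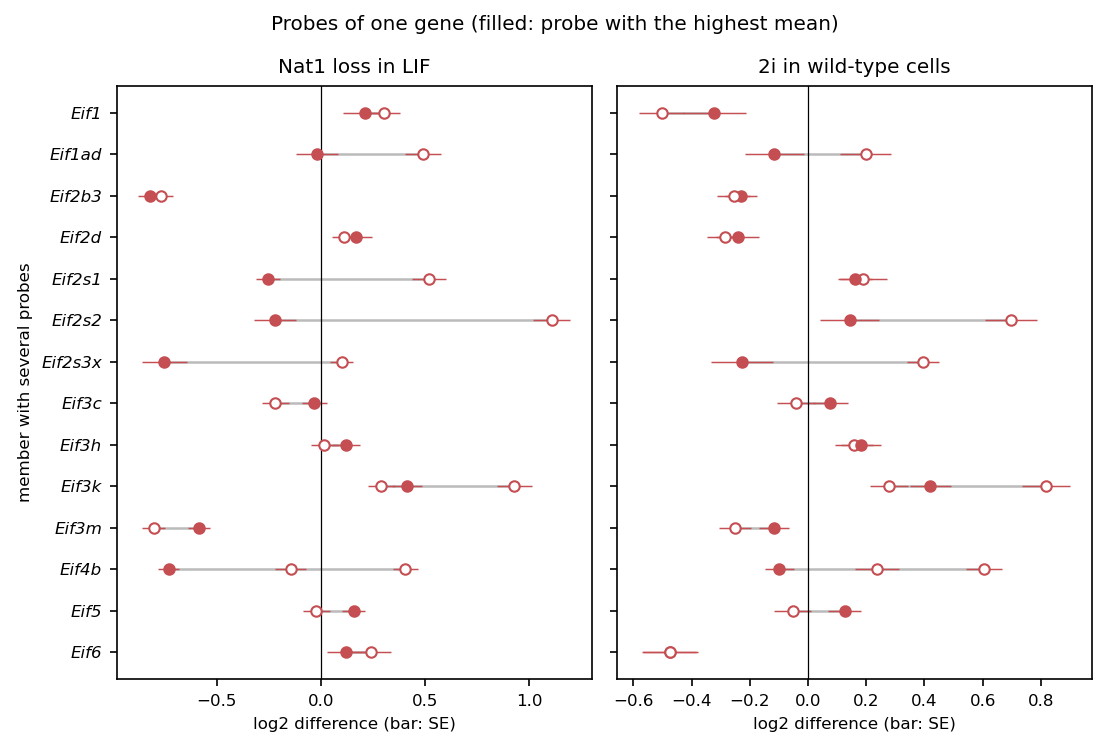
Log2 difference of every tested probe of the 14 members with several probes, for loss of Nat1 in LIF (left) and 2i in wild-type cells (right), with SE; the filled point is the probe used. Probes of Eif2b3 and Eif6 lie close together, whereas those of Eif2s1, Eif2s2, Eif2s3x and Eif4b lie on both sides of 0 in the left panel.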

How the data were processed

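RNA of mouse embryonic stem cells was measured on 12 single-colour Agilent arrays, 3 in each of 4 groups taken from the sample labels. Per the file headers, the authors' deposited scanner files hold processed intensity and flags for each spot from Agilent Feature Extraction 10.7.3.1, and the authors deposited a value table of log2 values whose columns matched these signals once each array was scaled to its 75th percentile.

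Processed signals were taken as log2, each array's 75th percentile was subtracted, control spots and outlier flags were left out and spots of one probe were averaged. Of 55681 probes, 27656 were named through RefSeq accessions (GRCm38.p6 table), and of 54229 complete probes 33286 were kept, each flagged well above background throughout 1 group or more. The probe with the highest mean stood for a gene. One limma 3.58.1 fit (R 4.3.3, lmFit and eBayes) covered all 12 arrays and 24457 genes, with Benjamini-Hochberg adjustment over all genes and a threshold of 0.05, two-sided. It was tested on simulated data. Tables were built with Python 3.11.15, pandas 2.3.3 and numpy 2.4.6, and figures with matplotlib 3.10.9.

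Values on every array are given for Eif4g2, for the members with up to 4 largest called rises and 4 largest called falls in each comparison of groups, for the 6 largest called interactions and for paralogs. From each pathway list, up to 3 called genes per comparison could be named. Members, lists and tests were chosen with earlier results of these data known. The alternatives were no scaling, median centring, quantile normalization, normexp background correction of the median spot signals with offset 50, other filters on dim probes, the mean of probes, the deposited log2 table, only the arrays compared, array weights, a replicate block and leaving out each array. Depth has no counterpart on arrays, and precision is limited by 3 arrays per group.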

Additional observations from a re-analysis of the deposited data

Results flagged for a closer look

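The 2i effect differed between genotypes for 23 members by the limma test of the interaction, the 2i difference in Nat1-null cells minus that in wild-type cells on the log2 scale. For the eIF1A gene Eif1a it was 0.47. For eIF2 and its alternatives it was 0.37 for Eif2a, 0.21 for Eif2s1, 0.48 for Eif2s2, 0.49 for Eif2s3x and 0.67 for Eif2s3y. For eIF2B it was 0.52 for Eif2b2, 0.24 for Eif2b3, 0.77 for Eif2b4 and 0.61 for Eif2b5. For eIF3 it was 0.23 for Eif3a, 0.25 for Eif3c, 0.31 for Eif3d, 0.27 for Eif3e, 0.37 for Eif3g, 0.65 for Eif3j1, 0.84 for Eif3j2 and 0.57 for Eif3m. For the helicase cofactors it was 0.41 for Eif4b and 0.42 for Eif4h. It was 1.29 for Eif5a, 0.47 for Eif6 and -0.42 for Eif5a2, the one value below 0. The largest adjusted p among the 23 was 0.049. For Eif2s1, Eif2s2 and Eif4b another probe was called lower for the interaction, and second probes of Eif2s3x and Eif2b3 were not called. Outside the 23, an Eif3k probe and the second Eif1ad probe were called lower for the interaction, and the second Eif1 and Eif5 probes higher. Groups of 3 arrays were too small to be searched for single arrays that stand apart.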

How the results depend on the processing

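Each call was recomputed under 23 alternatives, 22 for the interaction, where leaving other groups out does not apply. Of the calls, 11 of 19 for 2i in wild-type cells, 17 of 22 for loss of Nat1 in LIF, 8 of 15 for loss in 2i+LIF, 4 of 16 for 2i in null cells and 13 of 23 for the interaction held under all of them; without the unscaled values these were 15, 17, 11, 7 and 14. For 2i in wild-type cells, no scaling gave 0 higher and 34 lower (9.15% and 62.3% of all genes). It turned Eif2b5 (-0.144), Eif2s1 (-0.405), Eif3f (-0.325), Eif3h (-0.385) and Eif3k (-0.147). Quantile normalization gave 22 lower (29.1% of all genes) and turned Eif2s1 (-0.0258) and Eif3h (-0.0296). For loss of Nat1 in LIF, higher calls numbered 1 with no scaling (25.5% of all genes), quantile normalization (35.9%), no filter on dim probes (22.7%) or only the arrays compared (32.2%). They numbered 5 with the mean of probes (33.6%), 7 with median centring (38.4%) and 8 with array weights (38.2%). The mean of probes turned Eif2s1 (0.132). For loss in 2i+LIF, no scaling gave 21 higher and 1 lower (40.5% and 12.9% of all genes). Lower calls numbered 13 with quantile normalization (24.3%) and 9 with array weights (25.4%). For 2i in null cells, no scaling gave 4 higher and 5 lower (7.81% and 27.5% of all genes) and turned Eif5 (-0.0166). Quantile normalization gave 5 lower (18.0%), and only the arrays compared gave 8 higher and 0 lower (10.8% and 9.01%, limma). For the interaction, lower calls numbered 0 with no scaling (11.5% of all genes) and 2 with the mean of probes (26.1%), which turned Eif2s1 (-0.125) and Eif4b (-0.0632). The cause of these shifts was not tested.

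Leaving out 1 array gave 4 to 7 higher and 11 to 15 lower for 2i in wild-type cells (31.6% to 36.7% and 24.3% to 29.1% of all genes). For loss of Nat1 in LIF it gave 1 to 5 and 18 to 20 (31.0% to 35.0% and 30.0% to 33.3%). For loss in 2i+LIF it gave 7 to 13 and 5 to 8 (17.5% to 23.6% and 19.0% to 25.1%). For 2i in null cells it gave 14 to 17 and 0 to 2 (17.5% to 22.7% and 12.3% to 18.6%). For the interaction it gave 17 to 22 higher and 1 lower (21.0% to 24.8% and 23.5% to 28.2%). Replicate numbers did not pair the arrays: 1 of 18 same-numbered pairs had correlated deviations above 0.1 (0.301). With the replicate block the counts were 6 and 13, 3 and 19, 9 and 5, 15 and 1, and 22 and 1. The shares of all genes were 34.8% and 27.2%, 33.6% and 32.8%, 20.5% and 22.3%, 20.4% and 15.5%, and 23.3% and 25.7%. Genotype, and medium in wild-type cells, cannot be told apart from slide, and the dim probe of Eif5b limits what can be said of it.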
